A study of Mus musculus with 6 samples.

Results

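The RNAs described here are long noncoding RNAs of the nucleus and of snoRNA host genes: Malat1, Neat1, Gas5, Snhg1, Snhg3, Snhg8 and Snhg12. They were chosen by gene name, and 3 of the 7 (Malat1, Neat1 and Snhg12) were analysed here, out of 23307 genes in all. Gas5, Snhg1, Snhg3 and Snhg8 were not analysed here, so the snoRNA host genes among the named RNAs are represented by Snhg12 alone.

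Bulk RNA-seq was performed on inguinal lymph nodes of SJL mice with experimental autoimmune encephalomyelitis (EAE), a model of multiple sclerosis, taken 3 days after the disease was induced. Of the 6 mice, 3 had been treated with perampanel (an epilepsy medicine, an antagonist of the AMPA receptor for glutamate) and 3 were controls. Both groups had been induced, so no node of a healthy mouse is part of the comparison. No dose, age or sex, and no vehicle for the controls, is stated in the labels. The cells were suspended by straining and not sorted by any step the labels name, so fewer cells of a type and less RNA per cell cannot be told apart.

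Malat1 is a long RNA that is retained in nuclear speckles, bodies that store splicing factors. Neat1 is the scaffold of paraspeckles, bodies that hold RNA-binding proteins such as Nono and Sfpq, and is made as a short polyadenylated form and a long form without a poly(A) tail. Snhg12 is a host gene for small nucleolar RNAs (snoRNAs), which guide the chemical modification of ribosomal RNA. In such genes the snoRNAs lie in introns and are released by splicing, while the spliced exons code for little or no protein. Many snoRNA hosts start with a pyrimidine tract, the feature by which mRNAs of the translation machinery respond to growth signals, and spliced host transcripts are often removed by nonsense-mediated decay.

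The sequences at the ends of these RNAs are shown because the libraries were made from poly(A)-selected RNA. The first pair is the 100 bases up to the mature 3′ end of Malat1 (chr19:5795982-5796081, minus strand, GRCm38) and of the long form of Neat1 (chr19:5824708-5824807, minus strand), with 2 motifs in capitals. AAAAGCAAAA is the last 10 bases of the long form of Neat1, and TTTTGCTTTT is its reverse complement. Each was found once in each of the 2 transcripts, searched on the transcript strand.
Malat1: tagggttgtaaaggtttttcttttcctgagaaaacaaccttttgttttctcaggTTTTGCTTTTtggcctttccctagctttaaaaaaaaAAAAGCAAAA
Neat1 long form: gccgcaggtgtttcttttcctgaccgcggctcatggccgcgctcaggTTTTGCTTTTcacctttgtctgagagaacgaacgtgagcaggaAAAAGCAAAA
As background, the T-rich and A-rich stretches of both RNAs fold into a triple helix that protects an end made by RNase P rather than by polyadenylation. The A-rich motif closed the annotated long form of Neat1, and the small RNA gene Gm27702 began at the next base (chr19:5824652-5824707, minus strand).
Gm27702: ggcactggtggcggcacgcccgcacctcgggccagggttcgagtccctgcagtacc
The annotated Malat1 transcript ran 292 bases past the A-rich motif to a second end. That end and the ends of the short form of Neat1 (chr19:5842307-5842366, minus strand) and of Snhg12 (chr4:132310965-132311024, plus strand) carried the polyadenylation hexamer AATAAA, in capitals, which ended 16, 14 and 15 bases before the last base.
Malat1 annotated end, chr19:5795690-5795749: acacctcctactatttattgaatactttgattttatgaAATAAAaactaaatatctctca
Neat1 short form: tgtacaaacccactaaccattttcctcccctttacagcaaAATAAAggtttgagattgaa
Snhg12: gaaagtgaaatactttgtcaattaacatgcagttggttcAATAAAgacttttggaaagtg
The deposited values give 1 number per gene, so the short and long forms of Neat1 were not separated, and poly(A) selection favours forms with a tail or an encoded run of A.

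The RefSeq start of Snhg12 lies in a run of pyrimidines. The 90 bases from 40 before to 50 after its RefSeq start (chr4:132308638-132308727, plus strand, GRCm38.p6) hold a run of 9 C or T bases across the first transcribed base, in capitals.
Snhg12 start: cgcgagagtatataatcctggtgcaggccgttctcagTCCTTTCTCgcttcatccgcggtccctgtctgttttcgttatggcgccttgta
Part of this run lies before the first transcribed base, which is T. The GENCODE span of Snhg12 begins farther upstream, at 132308623. Whether the run acts as a tract that responds to growth signals was not tested. A run of at least 9 C or T bases across the start, read on the transcribed strand, was present in 3.03% of 32851 RefSeq promoters. The run was 2 bases at the RefSeq start of Malat1, and 0 at the RefSeq starts of the snoRNA hosts Snhg9 and Snhg20, whose first base is G. The promoter stretch read for Snhg20 (chr11:117076533-117076832) lies inside its GENCODE span, which begins farther upstream, at 117076008. Inside the span of Snhg12 the annotation places snoRNAs of 4 names, Snora16a (entered more than once), Snora44, Snora61 and Snord99. Snord99 (chr4:132310691-132310764) is a C/D box snoRNA, with TGATGA and CTGA in capitals, and Snora61 (chr4:132310240-132310369) is an H/ACA snoRNA, with the ACA that ends 3 bases before its 3′ end in capitals.
Snord99: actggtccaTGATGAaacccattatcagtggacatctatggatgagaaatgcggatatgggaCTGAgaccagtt
Snora61: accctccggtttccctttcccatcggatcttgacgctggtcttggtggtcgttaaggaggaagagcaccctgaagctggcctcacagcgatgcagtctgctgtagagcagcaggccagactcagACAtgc

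Libraries held 1779724 to 2003726 reads in perampanel mice and 2036072 to 2208589 in controls, so every perampanel library was shallower than every control. The share of reads from the mitochondrial genome was 10.34% to 10.77% under perampanel and 9.84% to 10.30% in controls, again without overlap. T cell transcripts dominated: the 7 T cell markers summed to 17021 to 17345 normalized read counts under perampanel and 15730 to 16681 in controls, without overlap. Trac and Trbc2 gave most of this sum, and Trac was the 1 marker of the 7 that passed the test, as higher (log2 0.16, limma adjusted p = 0.0304), where 0.419% of all genes tested were higher. Cd8a had 138, 150 and 142 in perampanel mice, against 192, 172 and 187 in controls, without overlap and in the other direction (log2 -0.36, adjusted p = 0.130), and Cd3d was at -0.03. The 6 B cell markers summed to 485 to 528 under perampanel and 502 to 511 in controls, most of it from Ighm. The 9 stromal and endothelial markers summed to 202 to 248 under perampanel and 179 to 209 in controls, nearly all from Pecam1. The 4 plasma cell markers, mostly Xbp1, summed to 57.2 to 76.5 under perampanel and 66.1 to 99.5 in controls. The 5 NK cell markers, mostly Nkg7, summed to 34.3 to 53.0 under perampanel and 50.5 to 77.8 in controls, and the 7 myeloid markers to 30.6 to 44.6 under perampanel and 23.7 to 34.4 in controls. The 5 dendritic cell markers summed to 1.01 to 3.43 under perampanel and 1.84 to 6.39 in controls, and Ccl19, Ccl21a, Adgre1 and Sdc1 were at 0 in every library. The 5 erythroid markers summed to 8.07 to 41.2 under perampanel and 7.31 to 14.8 in controls. The part of cell composition in the results below was not tested.

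None of the 3 long noncoding RNAs changed with perampanel by limma, a linear model fitted to the 9076 genes that averaged 10 or more normalized read counts, at an adjusted p under 0.05 (Benjamini-Hochberg). Over all genes tested, 1.1% passed (100 genes, 0.419% higher and 0.683% lower). None of the 3 passed by edgeR or DESeq2 either, which called 1.17% and 1.33% of the genes to which they gave an adjusted p. In all 3 RNAs the perampanel and control libraries overlapped, as they did in most genes: 14.1% of genes tested had no overlap (7.18% with perampanel above, 6.9% below).

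Malat1 (ENSMUSG00000092341.3, a single-exon lincRNA of 6983 bases on chromosome 19) was the most abundant of the 3. It had 3743, 4410 and 3652 normalized read counts in perampanel mice 1 to 3, against 3818, 4154 and 4359 in control mice 1 to 3. The second perampanel mouse was the highest of the 6 and the other two perampanel mice the lowest, so the controls lay between them. The means were 3935 ± 414 under perampanel and 4111 ± 273 in controls (SD, n = 3 each), a log2 fold change of -0.07 ± 0.05 (SE, limma adjusted p = 0.749). The 95% interval allowed a change between -11.4% and 2.99%. Counting error was small here: Malat1 took 11233 reads under perampanel and 13174 in controls, and the coefficient of variation between mice was 10.5% and 6.65%, against 1.57% from counting alone.

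Neat1 (ENSMUSG00000092274.3, chromosome 19, 5824708 to 5845478, minus strand) lies 22036 bases from Malat1 on the same strand. It had 448, 595 and 465 normalized read counts in perampanel mice 1 to 3, against 438, 476 and 484 in control mice 1 to 3. The second perampanel mouse stood above all others, while the remaining perampanel mice lay within the range of the controls. The means were 502 ± 80.6 under perampanel and 466 ± 24.6 in controls (SD, n = 3 each), a log2 fold change of 0.10 ± 0.09 (SE, limma adjusted p = 0.778). The 95% interval ran from -5.46% to 21.2%. Without the second perampanel mouse the sign turned, to -0.029. The coefficient of variation was 16% under perampanel and 5.27% in controls, with 4.53% from counting alone.

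Snhg12 (ENSMUSG00000086290.9, a lincRNA on chromosome 4, 132308623 to 132311024, plus strand) had the largest fold change of the 3. It had 179, 196 and 216 normalized read counts in perampanel mice 1 to 3, against 184, 155 and 165 in control mice 1 to 3. Perampanel mice 2 and 3 lay above every control, and the first lay below control 1. The means were 197 ± 18.5 under perampanel and 168 ± 14.6 in controls (SD, n = 3 each), a log2 fold change of 0.23 ± 0.11 (SE). The 95% interval, which is not adjusted for the number of genes, ran from 0.313% to 36.6%, with an unadjusted p of 0.0458, and the adjusted p was 0.523 (limma). An unadjusted p under 0.05 was found for 9.33% of all genes tested. Snhg12 rested on 559 reads under perampanel and 537 in controls, and its variation between mice of 9.37% and 8.69% was close to the 7.4% from counting alone.

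**Figure D1:**
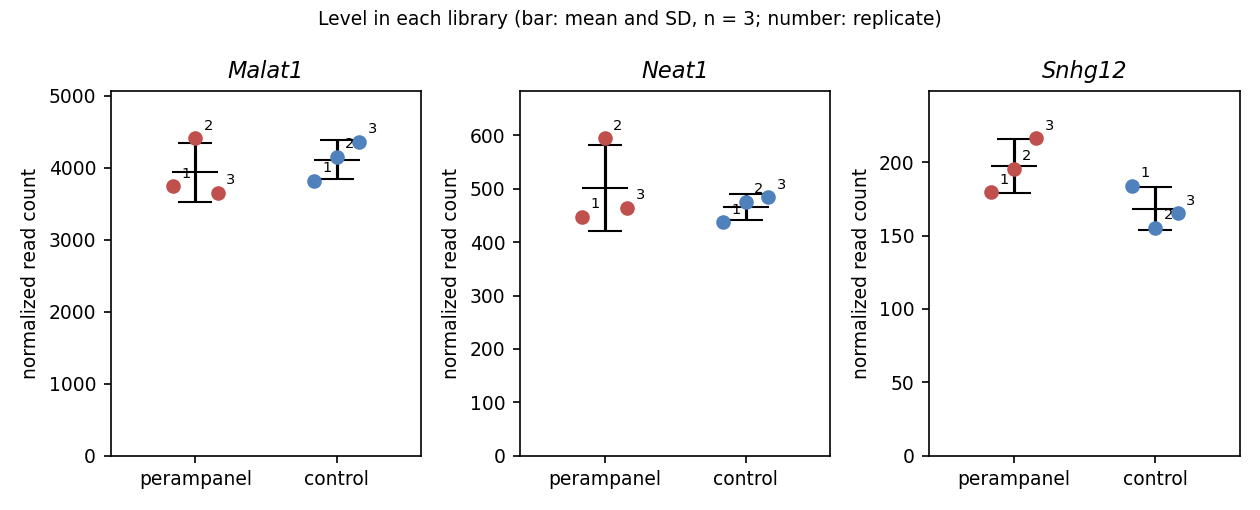
Normalized read counts (vertical axis, from 0) of Malat1, Neat1 and Snhg12 in each perampanel mouse (left, red) and control mouse (right, blue), numbered by replicate, with the mean and SD of 3 mice as black bars. The groups overlapped in each panel, and the second perampanel mouse was the highest for Malat1 (4410) and Neat1 (595).

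As shares of all reads, Malat1 took 0.183%, 0.219% and 0.179% in perampanel mice 1 to 3, against 0.191%, 0.206% and 0.217% in control mice 1 to 3. The Wilson 95% intervals of single libraries were 0.173% to 0.186% in perampanel 3 and 0.211% to 0.224% in control 3, and they cover counting error only. Neat1 averaged 0.0247% of reads under perampanel and 0.0232% in controls. Snhg12 averaged 0.00970% and 0.00838%. Exact two-sided permutation tests of these shares gave p = 0.6 for Malat1, 0.8 for Neat1 and 0.2 for Snhg12, where 3 mice against 3 allow no p below 0.1.

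Among 131 tested genes annotated as long noncoding, Malat1 ranked first by normalized read count, Neat1 was number 6 and Snhg12 number 12. Malat1 accounted for 27.2% of the reads of these 131 genes. Scaled to exon length and depth (RPKM, over the union of annotated exons), Malat1 was at 277 ± 31.2 under perampanel and 293 ± 19.4 in controls. Snhg12 was at 40.4 ± 3.82 and 34.9 ± 3.13, and Neat1 at 11.9 ± 2.00 and 11.2 ± 0.575 (SD, n = 3 each). By this measure the ranks among the 131 genes were 5 for Malat1, 13 for Snhg12 and 44 for Neat1. For Snhg12 the union, 2402 bases, is its whole annotated span, with the introns of its spliced transcripts included. Malat1 stood above both others in every library. The order of the other two depends on the transcript: over the short form of Neat1 (3004 bases) Neat1 was at 82.4 ± 13.8 under perampanel and 77.2 ± 3.98 in controls, above the union value of Snhg12. Over the spliced Snhg12 transcript of 606 bases, Snhg12 was at 160 ± 15.1 and 138 ± 12.4, above Neat1 again.

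Across the 6 mice, Malat1 and Neat1 followed each other more closely than either followed Snhg12. The root mean square difference between their log2 profiles, each taken about its own mean, was 0.10 for Malat1 and Neat1, 0.19 for Neat1 and Snhg12 and 0.23 for Malat1 and Snhg12. For comparison, the median difference from Malat1 over 5524 genes with a mean of at least 50 was 0.17. Malat1 and Neat1 shared their high value in the second perampanel mouse, at 0.14 and 0.30 above their means on the log2 scale. Snhg12 was lowest in controls 2 and 3, at -0.23 and -0.13, and highest in the third perampanel mouse, at 0.25.

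**Figure D2:**
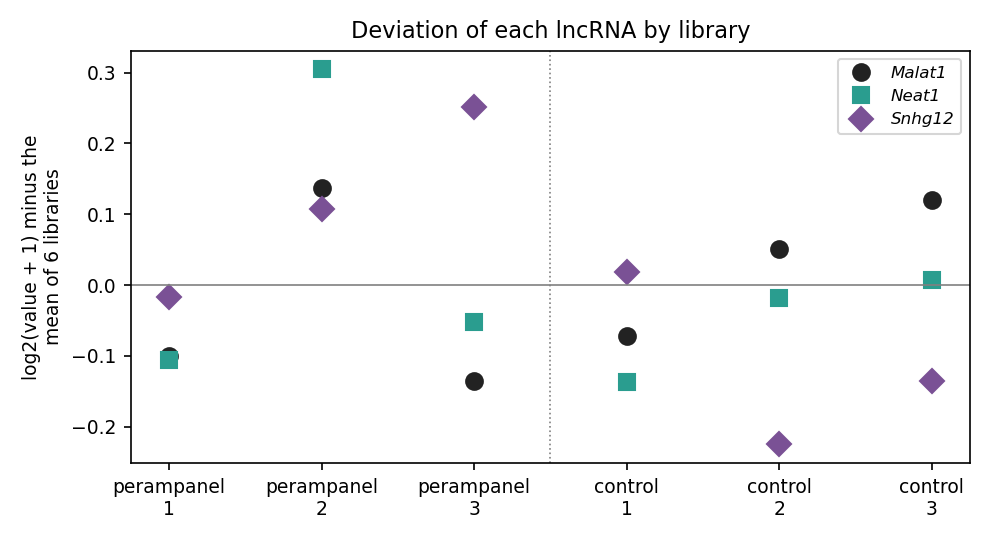
Deviation of log2(value + 1) from the mean of the 6 libraries (vertical axis) for Malat1 (circles), Neat1 (squares) and Snhg12 (diamonds) in each perampanel and control library, separated by a dotted line. Malat1 and Neat1 were both highest in perampanel 2 (0.14 and 0.30), and Snhg12 was highest in perampanel 3 (0.25).

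The genes with profiles most like each RNA over the 6 libraries were named by the smallest such difference. For Malat1 they were Sec11a, Eny2 and Dynlrb1 (0.031 to 0.033). For Neat1 they included Lats2 and Pkp3 (0.030 to 0.037), and for Snhg12 Samd9l, Wipi2 and Ppan (0.044 to 0.049). None of these 8 genes changed by limma, and with 6 libraries the likeness is a description only.

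Other snoRNA host genes of the Snhg kind were compared in the same way, and the groups overlapped in each one tested. Of 18 such genes listed, 7 were analysed here and 4 were tested, of which none passed (all tested genes, 1.1%). Snhg9 had 104, 96.8 and 73.3 normalized read counts in perampanel mice 1 to 3, against 66.9, 74.0 and 78.1 in control mice 1 to 3. Its log2 fold change was 0.31 ± 0.15 (SE, limma adjusted p = 0.549), and the third perampanel mouse lay within the controls. Snhg20 had 259, 166 and 199 in perampanel mice, against 171, 180 and 199 in controls, with a log2 fold change of 0.16 that was -0.01 without the first perampanel mouse. Snhg6 had 127, 112 and 109 in perampanel mice, against 118, 95 and 102 in controls (log2 0.15). Epb41l4aos averaged 120 ± 5.48 under perampanel and 128 ± 6.11 in controls (log2 -0.08, adjusted p = 0.881). Snhg10, Snhg11 and Snhg18 were too low to test, with 9, 4 and 1 reads under perampanel and 21, 1 and 0 in controls. Snhg9 overlaps the ribosomal protein gene Rps2 on the opposite strand and Snhg6 overlaps Mcmdc2, so without strand their reads cannot be told apart from those of these genes.

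**Figure D3:**
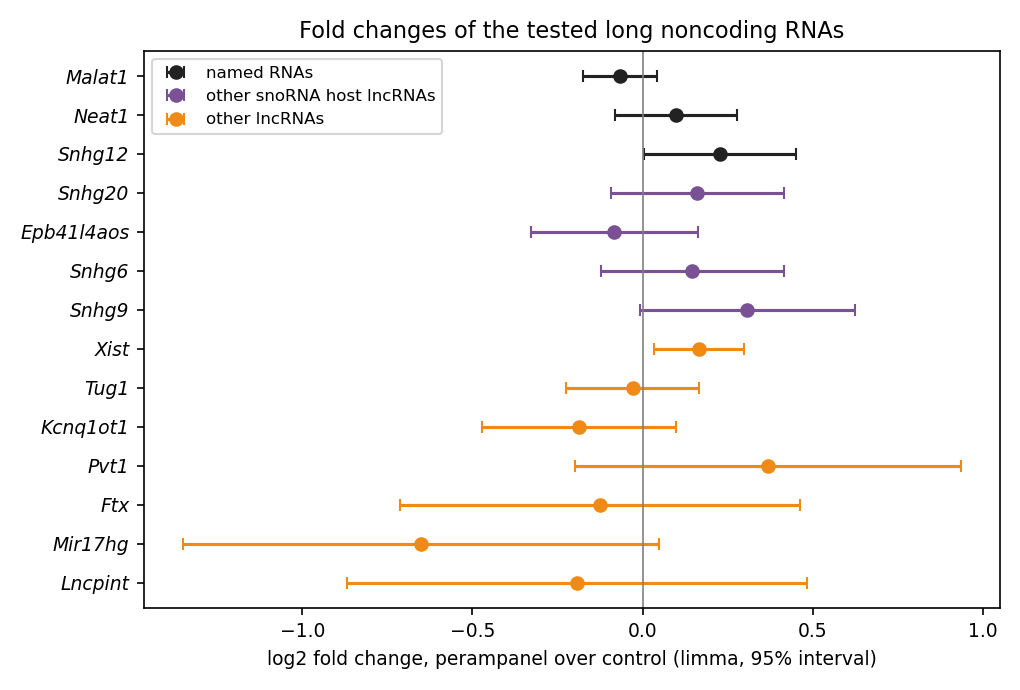
Log2 fold change of perampanel over control (horizontal axis, points) with the 95% interval from limma (bars) for the 14 tested long noncoding RNAs: the named RNAs (black), other snoRNA hosts (purple) and further long noncoding RNAs (orange). None passed at an adjusted p under 0.05, and the intervals of Malat1 (-0.17 to 0.04) and Neat1 (-0.08 to 0.28) include 0. Those of Snhg12 (0.0045 to 0.45) and Xist (0.03 to 0.30), not adjusted for the number of genes, lie above 0.

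Of the further long noncoding RNAs listed, 13 of 21 were analysed here, 7 were tested and none passed. Xist, which silences an X chromosome, had 947, 824 and 860 normalized read counts in perampanel mice, against 780, 744 and 821 in controls. All 3 perampanel mice lay above all 3 controls, as in 7.18% of genes tested, and the log2 fold change of 0.16 ± 0.06 did not pass (SE, limma adjusted p = 0.358). Kcnq1ot1, the antisense transcript of an imprinted cluster, was at -0.19, with all perampanel mice below all controls, as in 6.9% of genes tested. Tug1 was at -0.03. Pvt1, a neighbour of Myc, was at 0.37 with a mean of only 28.9 under perampanel and 21.8 in controls. Over all 131 annotated long noncoding genes tested, a class formed after the table was seen, none passed, 80 had a positive and 51 a negative fold change, and the median was 0.09 on the log2 scale, against 0.00 over all tested genes. That median ranged from 0.035 without perampanel 2 to 0.12 without perampanel 3. With no filter on low values it was 0.023 over 2404 genes, 1275 positive and 1129 negative.

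Of the genes around the named RNAs on the chromosome, none of the 8 tested passed. The groups did not overlap in 2 of them, as in 14.1% of all genes tested. Frmd8, beyond Neat1 on chromosome 19, had 265, 294 and 271 normalized read counts in perampanel mice, against 250, 252 and 252 in controls, without overlap, and a log2 fold change of 0.14 (limma adjusted p = 0.672). Trnau1ap, a selenoprotein factor 739 bases beyond Snhg12 on the opposite strand, was at -0.22. Neighbours of the host genes not analysed here were tested too. Zbtb37, whose first bases overlap Gas5 on the opposite strand, was at 0.23, and its groups did not overlap. Slc3a2 and Wdr74, beside Snhg1, were at 0.02 and -0.84, and Rcc1, which overlaps Snhg3 on the same strand, at 0.05. Wdr74 averaged only 7.92 under perampanel and 13.8 in controls, and the neighbours' 5 positive and 3 negative fold changes became 4 and 4 with quantile normalization and 3 and 5 without control 2.

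Protein-coding snoRNA hosts, which include genes of ribosomal proteins and elongation factors, were all measured, and 1 of 25 passed, as lower. It was Hspa8, a cytosolic chaperone, with 1433, 1458 and 1596 normalized read counts in perampanel mice, against 1747, 1677 and 1739 in controls (log2 -0.20 ± 0.05, SE, limma adjusted p = 0.0419). All 3 perampanel mice lay below all 3 controls, but the call was lost without perampanel 1 or 2, without any 1 control, under TMM scaling and with the replicate number as a block (-0.17 to -0.22), and reads of this gene may be shared with its pseudogenes. Among the hosts with the highest values, Rpl17 was at 0.02 and Rps12 at -0.06. Their list had 7 positive and 18 negative fold changes, with a median of -0.04 (-0.033 to -0.067 with 1 library left out) against 0.00 over all genes. Of all 195 tested genes with an annotated snoRNA or small Cajal body RNA inside on the same strand, again a class formed afterwards, 6 were lower and none higher, where 0.683% of all genes tested were lower: Hspa8, Nap1l1 (-0.26), Ncapd2 (-0.98), Ranbp1 (-0.38), Top2a (-1.43) and Ybx3 (-1.55). The RNA inside Nap1l1, Ranbp1, Top2a and Ybx3 is annotated under a Gm number only. Hspa8 holds Snord14c, Snord14d and Snord14e, and Ncapd2 holds Scarna10. Top2a and Ncapd2 serve chromosome structure in dividing cells. The median of the 195 was -0.01.

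The proteins listed for snoRNA particles had 12 of 12 tested members with a negative fold change (11 with quantile normalization or TMM scaling), and none passed. Over all genes tested, 49.7% had a negative fold change. Nop56, Nop58 and Dkc1 are also among the protein-coding hosts above, so the counts of the 2 lists share genes. Nop56, a core protein of C/D box particles, averaged 493 ± 65.5 under perampanel and 565 ± 21.7 in controls (log2 -0.20, limma adjusted p = 0.371). Nop58 was at -0.16, Nop10 at -0.09 and the chaperone Nolc1 at -0.02. The list median was -0.14, and it ran from -0.050 without control 1, when 8 of 12 were negative, to -0.22 without control 2.

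Paraspeckle proteins, the partners of Neat1, did not pass in any of 11 cases. Sfpq was at -0.11, Hnrnpk at -0.05 and Tardbp at -0.11, and the list median was -0.05, from -0.032 without perampanel 2 to -0.11 without control 2. The split of 4 positive and 7 negative was 2 and 9 with quantile normalization. Of 15 nuclear speckle proteins none passed either, with 7 positive and 8 negative fold changes (5 and 10 with quantile normalization). Srsf5, a splicing factor of the SR family, had 1511, 1660 and 1563 normalized read counts in perampanel mice, against 1351, 1398 and 1465 in controls. It had the smallest p of that list (log2 0.17 ± 0.05, SE, limma adjusted p = 0.143). Its groups did not overlap, as in 14.1% of all genes tested. Srrm2, Son and Sf3b1, a spliceosome subunit, were at 0.00, 0.05 and 0.03.

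Factors that process or degrade these RNAs were measured as well. None of 15 tested genes for the processing of Malat1 and Neat1 passed, which include subunits of RNase P and the RNA methylation machinery: Wtap was at -0.10, Rpp21 at 0.06, Pop5 at 0.05 and Mettl16 at -0.01. None of 14 genes of nonsense-mediated decay passed, with 9 positive and 5 negative fold changes and a median of 0.11. Leaving out 1 library gave medians from 0.044 without perampanel 2, with 7 positive and 7 negative, to 0.16 without perampanel 1, and the 12 genes that averaged 50 or more had a median of 0.046. Smg1, the kinase that activates Upf1, averaged 575 ± 36.4 under perampanel and 520 ± 12.7 in controls, without overlap (log2 0.14, limma adjusted p = 0.545). It was 1 of 3 genes of the 14 with all perampanel mice above all controls. Magoh was the 1 gene with all below (log2 -0.28, limma adjusted p = 0.429). Over all genes tested, 14.1% had no overlap. Eif4a3 and Rbm8a, of the exon junction complex, were at -0.18 and -0.06.

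Of 13 genes of growth and translation control none passed at this threshold, with 10 negative and 3 positive fold changes and a median of -0.17. That median was -0.10 without perampanel 1, and -0.045 over the 9 genes that averaged 50 or more, of which 6 were negative. Myc, a transcription factor of cell growth, had 92.8, 120 and 133 normalized read counts in perampanel mice, against 144, 136 and 163 in controls (log2 -0.37, limma adjusted p = 0.279). It was the 1 gene of the 13 without overlap, where 14.1% of all genes tested had none. Npm1, a nucleolar chaperone, averaged 3557 ± 294 under perampanel and 4012 ± 216 in controls and was nearest to the threshold (log2 -0.18 ± 0.05, SE, limma adjusted p = 0.0733). Rps6 was at -0.03, Eif4g1 at -0.05 and Larp1, which binds pyrimidine tracts at mRNA starts, at 0.00.

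**Figure D4:**
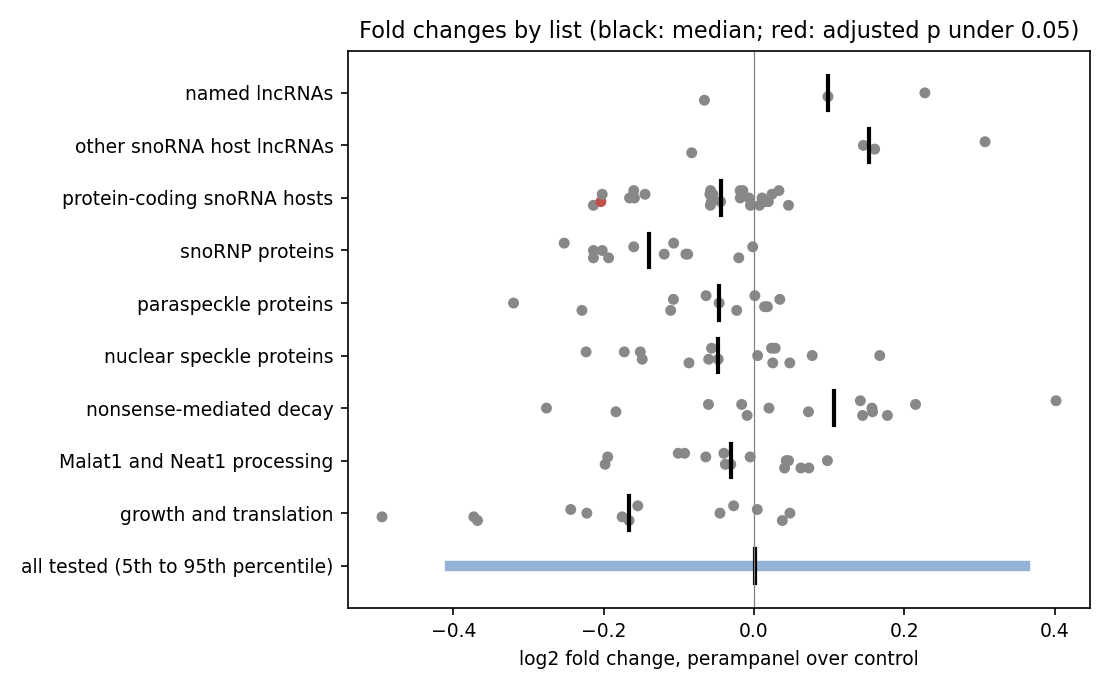
Log2 fold change of perampanel over control (horizontal axis) of each tested gene (points) in 9 lists (rows), with the list median in black. The bottom bar spans the 5th to 95th percentile of all 9076 tested genes (-0.40 to 0.36), and 1 gene among the lists passed the test (red, Hspa8 at -0.20).

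The authors' deposited table gave the same directions for the 3 RNAs. It lists log2 fold changes of -0.06 ± 0.10 for Malat1, 0.11 ± 0.11 for Neat1 and 0.23 ± 0.15 for Snhg12 (with the authors' standard errors). The adjusted p-values in the authors' deposited table were 0.997, 0.975 and 0.905.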

How the data were processed

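Cells of inguinal lymph nodes were sequenced after poly(A) selection with an NEBNext Ultra II kit, as the labels' protocols state; a kit of this name does not mark strand. The authors deposited size-factor-normalized signal (read counts divided by 1 factor per sample) for 23307 genes, with log2 fold changes, their standard errors and a statistic (scores), and p-values. The submitters' processing notes list DESeq2, DESeq and the build GRCm38. Aligner and counter: not given in the sources used here. The deposited statistic has the opposite sign to the fold change in all 19321 genes with one.

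All non-zero values were whole multiples of the sample's smallest value (100% within 1e-06), which gave back reads for depth and for alternative count tests. Chi-square per degree of freedom between replicates was 1.56 to 1.80, so all 6 libraries were counted separately. The labels name 3 mice per group.

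Genes with a mean of at least 10 (9076) entered limma-trend on log2(value + 1) in limma 3.58.1 under R 4.3.3; treatment was the sole term. Fold changes are on that scale, which understates the change of low genes. Alternatives were other pseudocounts, filters and scalings, count tests on recovered reads (edgeR 4.0.16, DESeq2 1.42.0, limma-voom), the replicate number as a block, and each library left out. The design allowed for raw or normalized values, and the test for normalized values was used. The fit was tested on simulated data.

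Named genes were the RNAs themselves, tested neighbours, the 3 nearest profiles, and from each list the called members filled up to 4 by level; other genes were named after their values were seen. Some genes the rule names are not reported here. Members and lists were chosen with earlier results of these data known. Positions are from GENCODE M21, in which 22082 names matched once. Sequences are from GENCODE M21 (GRCm38) and, for the start of Snhg12, from RefSeq (GRCm38.p6).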

Additional observations from a re-analysis of the deposited data

How the results depend on the processing

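Malat1 and Snhg12 kept their direction in all 16 alternatives (-0.15 to -0.01 and 0.16 to 0.29 on the log2 scale), and none of the 3 RNAs passed in any. Adjusted p ran from 0.149 to 0.999 for Malat1, from 0.590 to 0.999 for Neat1 and from 0.404 to 0.999 for Snhg12. Neat1 ranged from -0.029 to 0.18 when 1 library was left out and turned negative only without perampanel 2. The replicate numbers do not pair the mice by the labels: same-numbered libraries correlated at 0.033, 0.033 and 0.016 in their deviations, each highest with its own number. With the replicate block 35 genes were higher and 68 lower, Snhg12 was at 0.23 (adjusted p = 0.541), and the protein-coding hosts had 0 calls.

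Without a filter on low values 59 genes were higher and 120 lower, and growth and translation had 1 call. With quantile normalization 25 were higher, DESeq2 found 22 lower, and TMM scaling left the protein-coding hosts with 0 calls; the cause was not tested. With 1 library left out, 16 to 42 genes were higher and 25 to 74 lower, the protein-coding hosts had 0 to 2 calls and growth and translation 0 to 1. Leaving out control 1 gave 18 higher and 25 lower genes, and leaving out control 2 gave 16 and 39.

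Some genes that did not pass changed sign in places. Quantile normalization put Rpl17 at -0.0097, Srrm2 at -0.011, Slc3a2 at -0.0087, Larp1 at -0.013 and Mettl16 at 0.0010. Mettl16 was at 0.0028 with TMM scaling, 0.011 with edgeR and 0.013 with DESeq2. With 1 library left out the ranges were -0.0084 to 0.31 for Snhg20, -0.13 to 0.16 for Mettl16, -0.064 to 0.0010 for Tug1, -0.023 to 0.051 for Slc3a2, -0.082 to 0.025 for Nolc1, -0.034 to 0.041 for Srrm2, -0.14 to 0.047 for Eif4g1, -0.010 to 0.019 for Larp1, -0.12 to 0.16 for Rcc1, -0.13 to 0.00041 for Rbm8a, -0.026 to 0.093 for Sf3b1 and -0.0010 to 0.11 for Pop5.

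Depth limits the low genes. A count of 0 allows up to 3 reads, or 1.36 to 1.69 CPM by library, and Snhg10, Snhg11 and Snhg18 had 0 to 10 reads per library.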
